A study of Mus musculus with 8 samples.

Results

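Collagens are the structural proteins of the extracellular matrix, and their genes are read here over 4 groups of mouse fibroblast samples. The members were all probes, control spots aside, whose RefSeq accession belongs to a gene with a symbol of the collagen form (Col, a type number, the letter a and a chain number). The rule gave 42 genes on 70 probes, out of 18217 named genes and 41174 probes on the array. Of the 44 RefSeq symbols of this form, Col6a3 and Col12a1 had no probe that could be matched and are not analysed here. A further 6 genes were not well above background on both arrays of any group and were not tested: Col4a3, Col6a6, Col9a1, Col10a1, Col19a1 and Col26a1. This left 36 tested genes among 22922 tested targets, a target being one gene, or one unnamed transcript, read on its brightest tested probe.

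Total RNA came from 2 lines of mouse embryonic fibroblasts (MEFs), one wild type (WT) and one Keap1-/- (called Keap1 null below). KEAP1 is the adaptor that marks the transcription factor NRF2 for destruction. Each line was profiled as grown in dishes and as tumours raised in nu/nu mice by injection (allografts), and each of the 4 groups had 2 arrays. Both lines are labelled TR in all groups, and the labels do not spell this out. WT tumours started from 10000000 injected cells and Keap1 null tumours from 3000000, and they were taken at 100 to 150 mm3. One line stands for each genotype, so genotype and line cannot be told apart, and the labels do not say whether arrays 1 and 2 of a group came from separate cultures or animals. The p-values therefore measure the spread between these arrays, which may be technical.

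Every collagen is a bundle of 3 chains wound into a triple helix, made from identical or different chains. The fibrillar collagens (types I, II, III, V, XI, XXIV and XXVII) form or build into the banded fibres of connective tissue, and fibroblasts make several of them. Type IV makes the network of basement membranes, type VI makes beaded filaments around cells, the fibril-associated types sit on fibre surfaces, and others span the plasma membrane or form anchoring fibrils and short-chain networks.

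Levels are log2 processed signal minus the 75th percentile of the array, so 0 is the level of the probe at that percentile. A level is comparable between arrays for one probe, not between probes. Differences are log2 differences of group means with the standard error of the limma fit, and a call needed a p under 0.05 after Benjamini-Hochberg adjustment over all 22922 targets. The 2 arrays of a group were hybridised on separate slides, with all arrays numbered 1 on one slide and all numbered 2 on the other, per the file headers. The share of probes well above background ran from 60.6% to 64.5% over dishes and from 69.7% to 74.7% over tumours, and no collagen spot was saturated. Keap1 itself was at 3.32 and 2.99 in WT dishes, 2.37 and 2.22 in null dishes, 2.85 and 2.46 in WT tumours, and 1.00 and 0.92 in null tumours, lower in the null line but still detected. The place of its probe relative to the deletion is not known, so these levels check the labels only weakly. The summed signal of 11 skeletal muscle markers was 22.0 on Keap1 null allograft array 1 against 4.16 on array 2, and that of 9 keratinocyte markers was 2.99 against 0.256. Array 1 of that group carried more signal of both. In WT tumours array 1 carried more adipocyte signal, with a sum over 8 markers of 17.6 against 5.69 on array 2, and without it 28 collagens were higher and 0 lower in WT tumours than dishes. Without null allograft array 1 the Keap1 null tumour-against-dish counts given below were 28 higher and 1 lower.

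The promoters of 4 genes that the results turn on are shown with short motifs in capitals. The type I and type III chains Col1a2 and Col3a1 rose together in tumours, Col6a1 is a type VI chain whose genotype difference turned between dish and tumour, and Col8a1 was the one collagen called lower in Keap1 null tumours than in the dish on its brightest probe. Each sequence covers the 250 bases before the RefSeq start of transcription on the gene's own strand, 5′ to 3′, in build GRCm38.p6, at chr6:4505368-4505617 (plus strand), chr1:45311288-45311537 (plus strand), chr10:76726045-76726294 (minus strand) and chr16:57754738-57754987 (minus strand).
Col1a2: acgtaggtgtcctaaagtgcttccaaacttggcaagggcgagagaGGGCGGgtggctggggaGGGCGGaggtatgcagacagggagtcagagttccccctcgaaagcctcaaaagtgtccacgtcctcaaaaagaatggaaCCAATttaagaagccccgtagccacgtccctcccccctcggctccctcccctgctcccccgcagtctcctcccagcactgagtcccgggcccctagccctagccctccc
Col3a1: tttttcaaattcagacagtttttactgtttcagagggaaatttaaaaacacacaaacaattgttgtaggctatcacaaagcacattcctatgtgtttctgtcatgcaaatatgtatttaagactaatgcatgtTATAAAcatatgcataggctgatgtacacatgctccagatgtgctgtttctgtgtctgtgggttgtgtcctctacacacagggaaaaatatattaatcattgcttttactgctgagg
Col6a1: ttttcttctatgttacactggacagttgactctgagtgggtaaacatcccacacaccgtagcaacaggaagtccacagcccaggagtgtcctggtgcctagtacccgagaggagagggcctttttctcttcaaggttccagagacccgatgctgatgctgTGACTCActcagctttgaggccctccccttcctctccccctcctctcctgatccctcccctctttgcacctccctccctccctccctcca
Col8a1: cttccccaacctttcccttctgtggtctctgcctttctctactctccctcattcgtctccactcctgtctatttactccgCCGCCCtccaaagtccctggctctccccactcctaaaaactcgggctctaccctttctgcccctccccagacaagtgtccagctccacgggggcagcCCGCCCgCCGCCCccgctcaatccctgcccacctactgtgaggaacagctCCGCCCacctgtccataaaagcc
The motifs searched on both strands were the CCAAT box, the TATA box as TATAAA, the GC box as GGGCGG, the AP-1 motif as TGANTCA (which reads the same on both strands), and the core of the antioxidant response element, to which NRF2 binds, as TGACNNNGC. In the 4 sequences no motif overlapped another. The Col1a2 stretch held CCAAT from 109 to 105 bases before the start and 2 copies of GGGCGG. Col3a1 held TATAAA from 117 to 112 bases before the start, Col6a1 held TGANTCA from 90 to 84 bases before it, and Col8a1 held 4 copies of GGGCGG, all on the opposite strand. Of the 42 collagen genes, 34 had an entry in the promoter table. GGGCGG was in 21 of the 34 (61.8%) against 32.9% of all 27025 promoters, CCAAT in 12 (35.3%) against 34.5%, TATAAA in 5 (14.7%) against 13.0%, TGACNNNGC in 6 (17.6%) against 10.1% and TGANTCA in 1 (2.94%) against 6.87%. These shares describe letters in a window, and binding was not measured.

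The comparison of tumours with dishes asks which collagens differ between cells grown in an animal and on plastic. In the WT line 29 of the 36 tested collagens were higher in allografts and 0 were lower, where 35.9% of all targets were called higher and 32% lower. In the Keap1 null line 27 were higher and 1, Col8a1, was lower, where 35.8% of all targets were called higher and 29% lower. On their brightest probes Col6a5, Col8a2, Col14a1, Col23a1 and Col28a1 were well above background on both arrays of a group only in tumours. These probes entered the test only through groups where they were high, so their direction lends these counts no support. All were counted higher in WT, and Col14a1, Col23a1 and Col28a1 also in Keap1 null. Another Col23a1 probe was well above background in null dishes too. With only probes well above background on all arrays, 19 of 26 genes were called higher in WT tumours. The median collagen difference was 2.18 in WT (2.12 and 2.28 on slides 1 and 2) and 1.48 in Keap1 null (1.58 and 1.46), against -0.018 and 0.025 over all targets. In either direction 68% of all targets were called in WT and 64.8% in Keap1 null. A difference of at least 2-fold with a call was found upwards for 26 collagens in WT and 24 in Keap1 null, where 27.8% and 26.6% of all targets passed the same rule, and downwards for 0 and 1, where 10.4% and 8.93% did. The arrays of the groups compared did not overlap for any of the 29 and 28 called genes. The same held for every called gene of the pathway and marker lists below, so it is no trait of collagens. Its share over all targets was not computed. The 2 lines share no array in these comparisons, but their calls share 1 estimate of the spread per target and are not independent. On their brightest probes 24 collagens rose in both, 4 were called higher in WT alone (Col5a1, Col6a5, Col8a2 and Col9a3), 3 in Keap1 null alone (Col4a5, Col22a1 and Col25a1), and Col8a1 rose in WT and fell in Keap1 null.
Scaling on the array median in place of the 75th percentile moved the median of all targets to -1.04 in WT and -0.84 in Keap1 null, and then 23 collagens were higher and 7 lower in WT, and 20 higher and 7 lower in Keap1 null, with only 25.9% and 27.4% of all calls being higher against 52.9% and 55.2% in the main scaling. The collagen median was then 1.16 in WT and 0.61 in Keap1 null, above that shifted median in both. Quantile normalization gave 27 higher and 4 lower in WT and 25 and 4 in Keap1 null, and unscaled intensities gave 30 and 0, and 27 and 1. Tumour RNA also holds RNA of the host's cells, and in bulk RNA more cells of a type and more RNA per cell cannot be told apart.

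**Figure D1:**
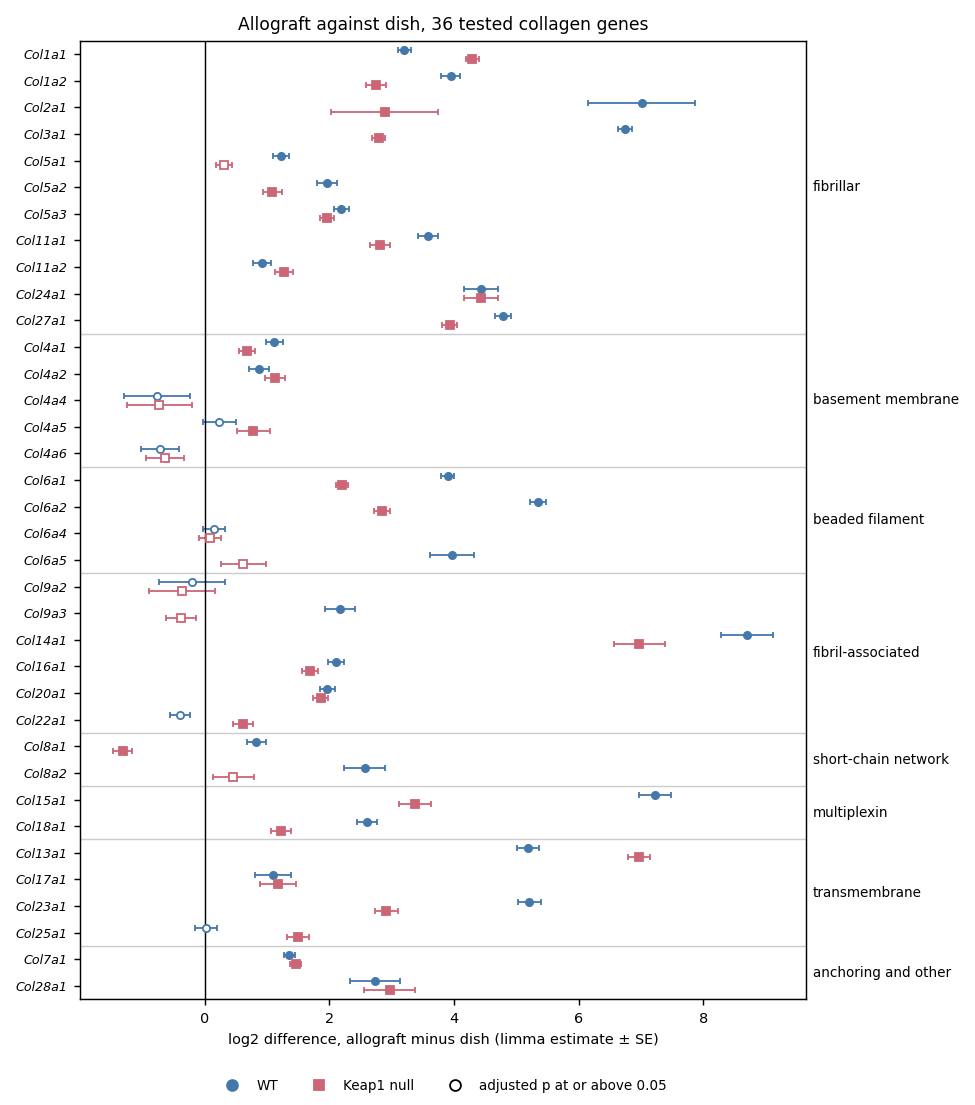
Log2 difference between allograft and dish for each of the 36 tested collagen genes, grouped by class, in WT (blue circles) and Keap1 null (red squares), with the standard error of the limma fit as bars and open symbols where the adjusted p was at or above 0.05. Most filled symbols lie right of 0, Col8a1 lies on opposite sides of 0 in the 2 lines, and the points of genes below background in the dish are fitted values, not bounds.

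All 11 fibrillar chains rose in WT tumours and 10 of 11 rose in Keap1 null tumours, with medians of 3.58 and 2.79. Under array-median scaling these counts were 9 higher and 0 lower in WT, and 9 higher and 1 lower in Keap1 null. Between the lines the class split in the dish, with 2 chains higher and 3 lower in Keap1 null cells. In tumours 1 chain was higher and 6 were lower in Keap1 null.
Type I collagen, the main collagen of skin, bone and tendon, is built from 2 chains of Col1a1 and 1 chain of Col1a2. The brightest Col1a1 probe read 3.63 and 3.79 on the WT dish arrays, 2.36 and 2.41 on the Keap1 null dish arrays, 6.88 and 6.94 in WT tumours, and 6.60 and 6.76 in null tumours. The groups did not overlap, and the null dish arrays were the lowest. The gene rose by 3.20 ± 0.10 (9.21-fold, adjusted p = 4.41e-06) in WT tumours and by 4.30 ± 0.10 (19.6-fold, 3.29e-06) in Keap1 null tumours. In the dish it was 2.5-fold lower in Keap1 null (-1.32 ± 0.10, adjusted p = 0.000599). In tumours the genotype difference on this probe was -0.23 ± 0.10 (adjusted p = 0.135) and was not called.
Col1a2 read 3.89 and 3.63 on the WT dish arrays, 4.15 and 3.90 on the Keap1 null dish arrays, 7.70 and 7.71 in WT tumours, and 6.63 and 6.91 in null tumours. The dish arrays of the lines adjoined without overlap, and both WT tumours were above both null tumours. Its rise in tumours was 3.95 ± 0.15 (15.5-fold, adjusted p = 8.2e-06) in WT and 2.75 ± 0.15 (6.72-fold, 3.42e-05) in Keap1 null. The genotype difference was 0.27 ± 0.15 in the dish (adjusted p = 0.306, not called) and -0.94 ± 0.15 in tumours (adjusted p = 0.0047).

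Type III collagen, a homotrimer of Col3a1 chains found with type I in soft and vascular tissue, differed most between the lines in the dish among the collagens called on their brightest probes. Its level was 0.087 and 0.13 on the WT dish arrays, 3.05 and 2.93 on the Keap1 null dish arrays, 6.81 and 6.90 in WT tumours, and 5.67 and 5.89 in null tumours. WT dish cells had the lowest level and WT tumours the highest, so the order of the lines turned between dish and tumour. Col3a1 was 7.39-fold higher in Keap1 null dish cells (2.89 ± 0.11, adjusted p = 5.66e-05) and 2.1-fold lower in Keap1 null tumours (-1.07 ± 0.11, 0.000729). Tumours exceeded dishes by 6.75 ± 0.11 (107-fold, adjusted p = 8.88e-07) in WT and by 2.79 ± 0.11 (6.91-fold, 1.08e-05) in Keap1 null.

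Type V collagen starts and limits the width of type I fibres. Col5a1 read 3.55 and 3.46 on the WT dish arrays, 3.01 and 2.89 on the Keap1 null dish arrays, 4.64 and 4.82 in WT tumours, and 3.14 and 3.39 in null tumours. WT tumours lay above the other groups, and null tumours lay between the null and the WT dish arrays without overlap. Col5a1 rose in WT tumours by 1.23 ± 0.13 (adjusted p = 0.000332), and in Keap1 null the difference was 0.32 ± 0.13 (0.0712), not called. That value turned to -0.55 under array-median scaling and was called higher under quantile normalization (0.52, adjusted p = 0.0148), with the mean over probes (0.53, 0.0208), without null allograft array 1 (0.44, 0.0395) and on the second Col5a1 probe (0.74, 0.0214). It was lower in Keap1 null in tumours (-1.46 ± 0.13, adjusted p = 0.000364) and in the dish (-0.55 ± 0.13, 0.0304). Leaving out any 1 of the 4 dish arrays ended the dish call, with adjusted p from 0.0844 to 0.161.
Col5a2 read 1.90 and 1.68 on the WT dish arrays, 0.63 and 0.38 on the Keap1 null dish arrays, 3.72 and 3.77 in WT tumours, and 1.43 and 1.75 in null tumours. No groups overlapped except WT dish and null tumours, which shared a range. It was 2.44-fold lower in Keap1 null dish cells (-1.28 ± 0.16, adjusted p = 0.00303) and 4.46-fold lower in Keap1 null tumours (-2.16 ± 0.16, 0.000183). It rose in tumours of both lines, by 1.96 ± 0.16 (0.000116) in WT and 1.09 ± 0.16 (0.0014) in Keap1 null.
Col5a3, the remaining type V chain, rose by 2.19 in WT and 1.96 in Keap1 null tumours. It was lower in null than WT tumours by 0.38 ± 0.12 (adjusted p = 0.0469), a call that ended without any 1 of 7 arrays, with adjusted p from 0.0736 to 0.159.

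Type XI collagen is the partner of type II in cartilage fibres and also occurs in mesenchymal cells. Col11a1 read -4.67 and -4.54 on the WT dish arrays, -2.80 and -2.57 on the Keap1 null dish arrays, -1.18 and -0.87 in WT tumours, and 0.26 and -0.0045 in null tumours. Every null array exceeded every WT array in the same growth, and tumours exceeded dishes. It was 3.78-fold higher in Keap1 null dish cells (1.92 ± 0.16, adjusted p = 0.000747) and 2.23-fold higher in Keap1 null tumours (1.15 ± 0.16, 0.00243), and it was the only fibrillar chain called higher in null tumours. Tumours exceeded dishes by 3.58 in WT and 2.81 in Keap1 null. A second Col11a1 probe was not well above background in either dish group. Between the lines it gave 1.83 in tumours (adjusted p = 0.0132) and a fitted 1.21 in dish (0.0857), not called. Col11a2 rose by 0.91 and 1.27, and the WT value turned to -0.11 under array-median scaling and -0.08 under quantile normalization. A second Col11a2 probe showed no called difference between tumour and dish (-0.037 in WT and -0.24 in Keap1 null, adjusted p = 0.818 and 0.157), and it was lower in null than WT tumours (-0.49, 0.027).
Col24a1 and Col27a1 are minor fibrillar chains. Col24a1 rose by 4.44 ± 0.27 (21.7-fold) in WT and by 4.43 ± 0.27 (21.5-fold, adjusted p = 4.75e-05) in Keap1 null tumours. Only 1 of its 2 WT dish arrays was well above background, so the WT rise is not exact. Col27a1 rose by 4.79 (27.6-fold) and by 3.93 ± 0.12 (15.2-fold, adjusted p = 5.37e-06), and was lower in null than WT tumours by 0.68 ± 0.12 (0.00624).
Col2a1, the cartilage collagen, read -4.19 and -2.94 on the WT dish arrays, -1.60 and -0.34 on the Keap1 null dish arrays, 2.67 and 4.23 in WT tumours, and 1.06 and 2.77 in null tumours on its brightest tested probe. In each of the 4 groups the slide 2 array was more than 1 log2 unit above the slide 1 array, and this gene had the largest standard error of the tested collagens. Tumours exceeded dishes by 7.01 ± 0.86 in WT (adjusted p = 0.000654) and 2.89 ± 0.86 in Keap1 null (0.0263), and the null call ended without null dish array 1 or null allograft array 2 (adjusted p = 0.122 in both). The genotype differences were 2.60 ± 0.86 in the dish (adjusted p = 0.089) and -1.53 ± 0.86 in tumours (0.21), not called. With the replicate number, which is the slide, as a block both were called, at adjusted p = 0.000615 and 0.00123, and within slides 1 and 2 they were 2.59 and 2.60 in the dish and -1.61 and -1.45 in tumours. A second Col2a1 probe read from -3.02 to -2.15 on all 8 arrays, with differences between -0.31 and 0.15 and no call. Of 9 chondrocyte markers, 6 were tested, and in WT tumours against dishes 1 rose (Comp, 2.23) and 3 fell, Sox9 among them (-0.93). In Keap1 null 0 rose and 3 fell. Over all targets 35.9% were called higher and 32% lower in WT, and 35.8% and 29% in Keap1 null. The linear sum of these markers, in which Sox9 weighs most, ran from 2.88 to 6.08 over the WT arrays and from 1.16 to 3.72 over the null arrays. Matn1, Cnmd and Ucma were not well above background on any array. The part of cartilage cells in the Col2a1 values was not tested.

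**Figure D2:**
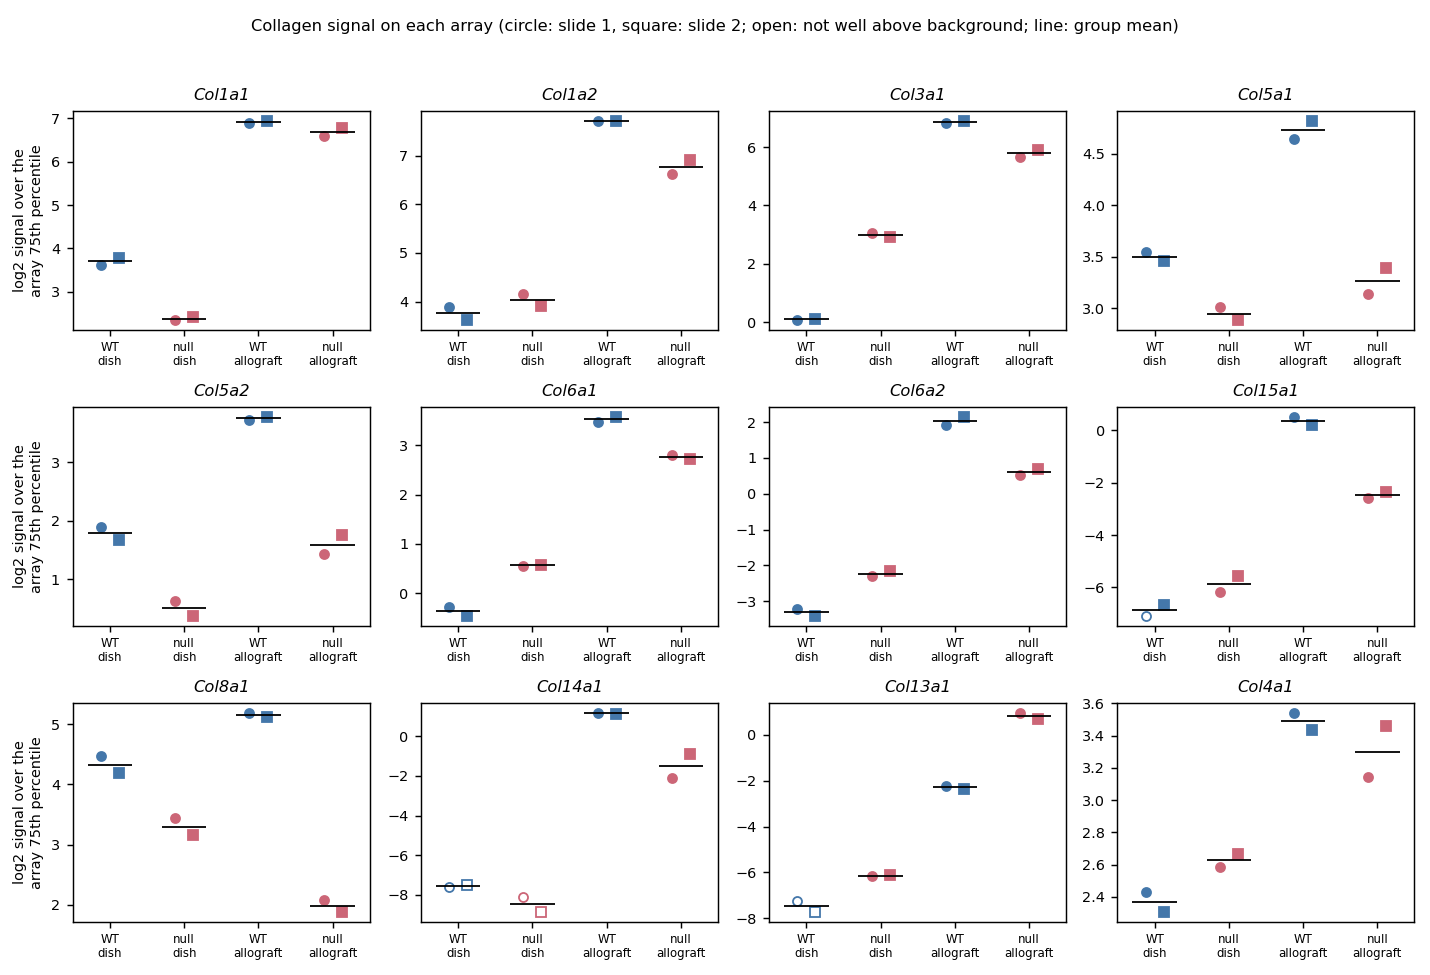
Level of 12 collagen genes on each of the 8 arrays, as log2 processed signal over the array's 75th percentile, with circles for slide 1, squares for slide 2, open symbols for spots not well above background and a line at the group mean. Col3a1, Col6a1, Col6a2 and Col15a1 are lowest in WT dishes and highest in WT tumours, Col8a1 is lowest in Keap1 null tumours, and Col13a1 is highest there.

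The basement membrane chains had smaller median differences between tumour and dish than the fibrillar ones, a contrast of classes that was not tested. Of the 5 tested type IV genes, 2 rose in WT and 3 in Keap1 null tumours, with medians of 0.24 and 0.68, and under array-median scaling these counts turned to 0 higher and 3 lower in WT and 0 higher and 2 lower in Keap1 null. No type IV gene was called between the lines in dish or tumour on its brightest probe.
Col4a1 and Col4a2 make the common network of all basement membranes. Col4a1 read 2.43 and 2.31 on the WT dish arrays, 2.58 and 2.67 on the Keap1 null dish arrays, 3.54 and 3.44 in WT tumours, and 3.14 and 3.46 in null tumours, and Col4a2 read 2.70 and 2.38 on the WT dish arrays, 2.58 and 2.37 on the Keap1 null dish arrays, 3.55 and 3.29 in WT tumours, and 3.66 and 3.56 in null tumours. Both were above their dish levels in tumours with no overlap. Col4a1 rose by 1.12 ± 0.13 (adjusted p = 0.000566) in WT and 0.68 ± 0.13 (0.00511) in Keap1 null. Col4a2 rose by 0.88 ± 0.16 (0.0035) and 1.13 ± 0.16 (0.00131). Under array-median scaling Col4a1 in Keap1 null turned to -0.19 and Col4a2 in WT to -0.14. The genotype differences were 0.26 ± 0.13 in dish and -0.19 ± 0.13 in tumour for Col4a1 (adjusted p = 0.251 and 0.31), and -0.066 ± 0.16 and 0.19 ± 0.16 for Col4a2 (0.844 and 0.404).
Col4a3 to Col4a6 are chains of the specialised basement membranes of kidney, lung and muscle. Col4a4 read 0.24 and 0.71 on the WT dish arrays, -0.10 and 0.78 on the Keap1 null dish arrays, -0.61 and 0.036 in WT tumours, and -1.04 and 0.27 in null tumours. In each group the slide 2 array was above the slide 1 array. Its differences were -0.77 ± 0.52 in WT and -0.72 ± 0.52 in Keap1 null between tumour and dish (adjusted p = 0.242 and 0.272), and -0.14 ± 0.52 and -0.10 ± 0.52 between the lines (0.899 and 0.9). With the replicate block Col4a4 was called lower in tumours of both lines (adjusted p = 0.0244 and 0.0305).
Col4a5 read -3.40 and -2.86 on the WT dish arrays, -3.46 and -3.19 on the Keap1 null dish arrays, -3.20 and -2.59 in WT tumours, and -2.61 and -2.48 in null tumours. It rose in Keap1 null tumours by 0.78 ± 0.26 (adjusted p = 0.041), and the call ended without any 1 of the 4 null arrays, with adjusted p from 0.0708 to 0.167. In WT the difference was 0.24 ± 0.26 (0.464), and between the lines it was -0.20 ± 0.26 in dish and 0.35 ± 0.26 in tumour (0.7 and 0.345).
Col4a6 gave different answers on its 3 probes. The brightest read -1.69 and -1.29 on the WT dish arrays, -1.95 and -1.42 on the Keap1 null dish arrays, -2.46 and -1.95 in WT tumours, and -2.59 and -2.05 in null tumours, with differences of -0.20 ± 0.30 in dish and -0.12 ± 0.30 in tumour between the lines (adjusted p = 0.741 and 0.794). Between tumour and dish it gave -0.71 ± 0.30 in WT and -0.64 ± 0.30 in Keap1 null (0.0783 and 0.111), and with the replicate block both were called lower (adjusted p = 0.000727 and 0.0012). The second probe read -4.89 and -4.82 on the WT dish arrays, -1.61 and -1.64 on the Keap1 null dish arrays, -3.96 and -3.88 in WT tumours, and -1.91 and -2.04 in null tumours. Between tumour and dish this probe was called at 0.94 in WT and -0.36 in Keap1 null. On it and on the third probe every null array was above every WT array. The second probe put Col4a6 higher in Keap1 null by 3.23 in dish and 1.94 in tumours, both called. The third was not well above background in the WT groups and gave only bounds, at least 1.69-fold in dish and at least 2.69-fold in tumours.

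Type VI collagen forms beaded filaments from Col6a1, Col6a2 and a further long chain. Of 4 tested genes, 3 rose in WT tumours and 2 in Keap1 null tumours, and 3 were lower in null than in WT tumours. Under array-median scaling 1 gene, Col6a4, was called lower in the tumours of each line.
Col6a1 read -0.29 and -0.45 on the WT dish arrays, 0.55 and 0.58 on the Keap1 null dish arrays, 3.48 and 3.58 in WT tumours, and 2.81 and 2.72 in null tumours. Col6a2 read -3.23 and -3.40 on the WT dish arrays, -2.30 and -2.16 on the Keap1 null dish arrays, 1.92 and 2.15 in WT tumours, and 0.53 and 0.70 in null tumours. In both genes WT dish cells were lowest, null dish cells next, then null tumours, and WT tumours highest, with no overlap. Col6a1 was 1.91-fold higher in null dish cells (adjusted p = 0.00196) and 1.69-fold lower in null tumours (0.00195). Col6a2 was 2.12-fold higher in null dish cells (1.08 ± 0.13, 0.00311) and 2.67-fold lower in null tumours (0.000479). The rise in tumours was 14.9-fold in WT and 4.6-fold in Keap1 null for Col6a1. For Col6a2 it was 40.7-fold (5.35 ± 0.13, adjusted p = 1.97e-06) and 7.2-fold.
Col6a5 was well above background in WT tumours only, at -5.00 and -4.79. It was at least 3.4-fold higher there than in WT dishes and at least 3.57-fold higher there than in null tumours (adjusted p = 0.000742), and it entered the test only through the WT tumours. Such a bound divides the bright group's mean by the dim group's mean after each dim value is raised, where it is lower, to the dimmest well-above-background signal of its array. On its brightest probe Col6a4 was not called in any comparison, with differences from 0.039 to 0.15 in the 4 pairwise comparisons. Its second probe was called lower in null than WT tumours (-1.46 ± 0.35, adjusted p = 0.0186) and in no other comparison.

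The fibril-associated collagens decorate fibres and link them to other matrix. Of 6 tested, 4 rose in the tumours of each line, and under array-median scaling 4 were higher and 2 lower in WT and 3 higher and 2 lower in Keap1 null.
Col14a1 binds to the surface of type I fibres. Its level was -7.58 and -7.52 on the WT dish arrays, -8.10 and -8.84 on the Keap1 null dish arrays, 1.18 and 1.12 in WT tumours, and -2.09 and -0.90 in null tumours, and no dish array was well above background. The rise was at least 225-fold in WT (fitted 8.70 ± 0.42, adjusted p = 1.7e-05) and at least 37.1-fold in Keap1 null (fitted 6.98 ± 0.42, 4.28e-05). Null tumours were 6.24-fold below WT tumours (-2.64 ± 0.42, 0.00394).
Col16a1 rose by 2.11 and 1.69, and Col20a1 by 1.97 and 1.86. Col20a1 was well above background on 1 of the 2 WT dish arrays. In dish cells Col16a1 was 1.59-fold higher in Keap1 null (adjusted p = 0.0144), a call that ended without any 1 of the 4 dish arrays (0.0615 to 0.0862). Its second probe gave -0.19 there (adjusted p = 0.672) and the mean over probes 0.24 (0.233), neither called.
Col22a1, a collagen of the junctions between muscle and tendon, read -4.45 and -4.47 on the WT dish arrays, -5.85 and -5.59 on the Keap1 null dish arrays, -5.02 and -4.71 in WT tumours, and -5.25 and -4.97 in null tumours. The WT dish arrays were the highest and the null dish arrays the lowest. It was 2.39-fold lower in null dish cells (-1.26 ± 0.16, adjusted p = 0.004). It rose by 0.61 in null tumours (0.0178), which turned to -0.25 under array-median scaling and -0.30 under quantile normalization and was not called without null dish array 1 or null allograft array 2 (adjusted p = 0.0978 and 0.0833). In WT the difference was -0.40 ± 0.16, not called, and with the replicate block it was called (adjusted p = 0.0218).
Col9a3, a chain of the cartilage collagen type IX, read -5.97 and -6.21 on the WT dish arrays, -6.27 and -6.10 on the Keap1 null dish arrays, -3.90 and -3.94 in WT tumours, and -6.91 and -6.21 in null tumours. WT tumours stood above the other 3 groups. It rose 4.5-fold in WT tumours and was 6.23-fold lower in null than WT tumours (-2.64 ± 0.24, adjusted p = 0.000417), where 1 of the 2 null arrays was well above background. Col9a2 was not called in any comparison.

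The short-chain collagen type VIII forms networks under endothelium and in vessel walls. Col8a1 read 4.47 and 4.19 on the WT dish arrays, 3.44 and 3.15 on the Keap1 null dish arrays, 5.19 and 5.12 in WT tumours, and 2.08 and 1.89 in null tumours. WT tumours were highest and null tumours lowest, and no groups overlapped. Null tumours were 9.03-fold below WT tumours (-3.17 ± 0.15, adjusted p = 4.46e-05), and null dish cells were 2.04-fold below WT dish cells (-1.03 ± 0.15, 0.00652). From dish to tumour the gene fell by 1.32 ± 0.15 in Keap1 null (0.000577) and rose by 0.83 ± 0.15 in WT (0.00372), which turned to -0.20 under array-median scaling. A second Col8a1 probe gave -3.12 in tumours and -1.04 in dish between the lines, and -1.15 and 0.93 between tumour and dish in Keap1 null and WT, all called. Col8a2, the other chain, rose at least 5.49-fold in WT tumours and was 4.02-fold lower in null tumours.

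The multiplexins Col15a1 and Col18a1 are collagens of basement membrane zones, and the end of the Col18a1 chain is the source of endostatin. Col15a1 read -7.07 and -6.66 on the WT dish arrays, -6.16 and -5.55 on the Keap1 null dish arrays, 0.51 and 0.21 in WT tumours, and -2.58 and -2.38 in null tumours. Tumours exceeded dishes by 7.22 ± 0.25 (149-fold, adjusted p = 5.53e-06) in WT and 3.38 ± 0.25 (10.4-fold, 9.77e-05) in Keap1 null, and null tumours were 7.13-fold below WT tumours (-2.83 ± 0.25, 0.000405). Only 1 of the 2 WT dish arrays was well above background, so the WT rise is not exact, and with normexp it was 4.61. In the dish the null arrays were above the WT arrays (1.01 ± 0.25, 0.04), a call that ended without any 1 of 7 arrays (0.0622 to 0.168). A second Col15a1 probe was not well above background on the arrays of either dish group. It rose at least 7.61-fold in WT and at least 1.55-fold in Keap1 null tumours.
Col18a1 read 3.75 and 3.40 on the WT dish arrays, 4.62 and 4.44 on the Keap1 null dish arrays, 6.30 and 6.05 in WT tumours, and 5.82 and 5.69 in null tumours. It rose 6.08-fold in WT and 2.33-fold in Keap1 null tumours. Null dish cells were 1.94-fold above WT dish cells (0.96 ± 0.16, adjusted p = 0.0102, and 0.0688 without null dish array 1). In tumours the null level was 0.42 ± 0.16 lower (0.0842), not called, and with the replicate block it was called (adjusted p = 0.0123).

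The transmembrane collagens sit in the cell membrane with the triple helix outside. In WT tumours 3 of 4 rose and in Keap1 null tumours 4 of 4, and under array-median scaling 2 were higher and 1 lower in WT and 3 higher in Keap1 null.
Col13a1 read -7.26 and -7.70 on the WT dish arrays, -6.17 and -6.12 on the Keap1 null dish arrays, -2.23 and -2.37 in WT tumours, and 0.95 and 0.69 in null tumours. Null tumours were highest, WT tumours next, and the WT dish arrays were not well above background. Col13a1 was 8.69-fold higher in null than in WT tumours (3.12 ± 0.18, adjusted p = 7.73e-05), and at least 1.43-fold higher in null dish cells (fitted 1.33 ± 0.18, 0.00413). It rose 125-fold in Keap1 null tumours (6.97 ± 0.18, 3.48e-06) and at least 20.6-fold in WT tumours. Its second probe gave 3.09 between the lines in tumours. That probe was not well above background in either dish group and gave a fitted -0.13 there (adjusted p = 0.821), not called. The dish call of Col13a1 also ended with the mean over probes (0.60, adjusted p = 0.11) and with normexp (0.11, 0.753).
Col25a1, a collagen of neurons that also binds amyloid, read -5.48 and -5.65 on the WT dish arrays, -5.74 and -5.57 on the Keap1 null dish arrays, -5.72 and -5.37 in WT tumours, and -4.00 and -4.33 in null tumours. Only the null tumours stood apart. They were 2.59-fold above WT tumours (1.37 ± 0.18, adjusted p = 0.00174) and 2.81-fold above null dish cells. A second probe was well above background in null tumours alone, which were at least 4.52-fold above WT tumours on it.
Col23a1 rose at least 24.4-fold in WT (fitted 5.21 ± 0.18, 5.53e-06) and at least 7.47-fold in Keap1 null tumours (fitted 2.92 ± 0.18), since its brightest probe was not well above background in either dish, and was 3.25-fold lower in null than WT tumours. Another Col23a1 probe, well above background in null but not WT dishes, rose at least 15.9-fold in WT tumours. Col17a1, the hemidesmosome collagen of skin, rose by 1.10 and 1.18. The WT call ended without any 1 of 3 WT arrays (0.0531 to 0.0699) and the null call without null dish array 2 (0.0664). Array-median and quantile scaling ended both calls, at 0.079 and 0.058 in WT and 0.32 and 0.38 in Keap1 null. A second Col17a1 probe gave 0.38 in WT (adjusted p = 0.226) and 0.16 in Keap1 null (0.597), neither called.

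Col7a1, the collagen of anchoring fibrils under the epidermis, read 3.94 and 3.96 on the WT dish arrays, 3.39 and 3.34 on the Keap1 null dish arrays, 5.30 and 5.31 in WT tumours, and 4.76 and 4.90 in null tumours. Null arrays were below WT arrays in both growths, by 0.58 ± 0.09 in dish (adjusted p = 0.00727) and 0.48 ± 0.09 in tumours (0.00766). The dish call ended without either null dish array (0.0519 and 0.0638). It rose by 1.36 in WT and 1.46 in Keap1 null tumours. Col28a1 was not well above background in dishes and was at least 1.45-fold and at least 2.66-fold higher in WT and Keap1 null tumours.

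The comparison between the lines asks which collagens differ with the loss of Keap1, in dish and in tumour. In the dish 8 collagens were higher and 6 lower in Keap1 null, where 11.4% of all targets were called higher and 9.37% lower. In tumours 3 were higher and 16 lower, where 20.5% and 21.2% of all targets were. Col6a5 is among the lower ones and entered the test only through WT tumours, so its direction lends the tumour counts no support. The collagen median was 0.10 in the dish (-0.051 and 0.10 on slides 1 and 2) and -0.31 in tumours (-0.49 and -0.31), against -0.048 and 0.0067 over all targets. With genes at their bounds the dish median was 0. None of the 14 and 19 called genes had overlapping groups, which again held for every called gene of the pathway and marker lists. At least 2-fold with a call, 5 were higher and 4 lower in dish, and 3 higher and 11 lower in tumours, where 6.02%, 2.29%, 9.19% and 10.7% of all targets passed. These comparisons share no array, but they come from 1 fit with 1 estimate of the spread per target, so their calls are not independent. Of the 10 genes called in both on their brightest probes, 2 were higher in Keap1 null in both (Col11a1 and Col13a1), 4 lower in both (Col5a1, Col5a2, Col7a1 and Col8a1), and 4 higher in dish and lower in tumour (Col3a1, Col6a1, Col6a2 and Col15a1). The second probes of Col11a1, Col13a1 and Col15a1 were not well above background in dishes and were not called there.
In tumours the 16 lower genes held 6 fibrillar chains, 3 type VI chains (Col6a5 among them), both type VIII chains and Col15a1. The array-median counts were 7 higher and 7 lower in dish, and 3 and 15 in tumours. Without null allograft array 1 the tumour counts were 3 higher and 15 lower. In either direction 20.8% of all targets were called in dish and 41.7% in tumours.

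**Figure D3:**
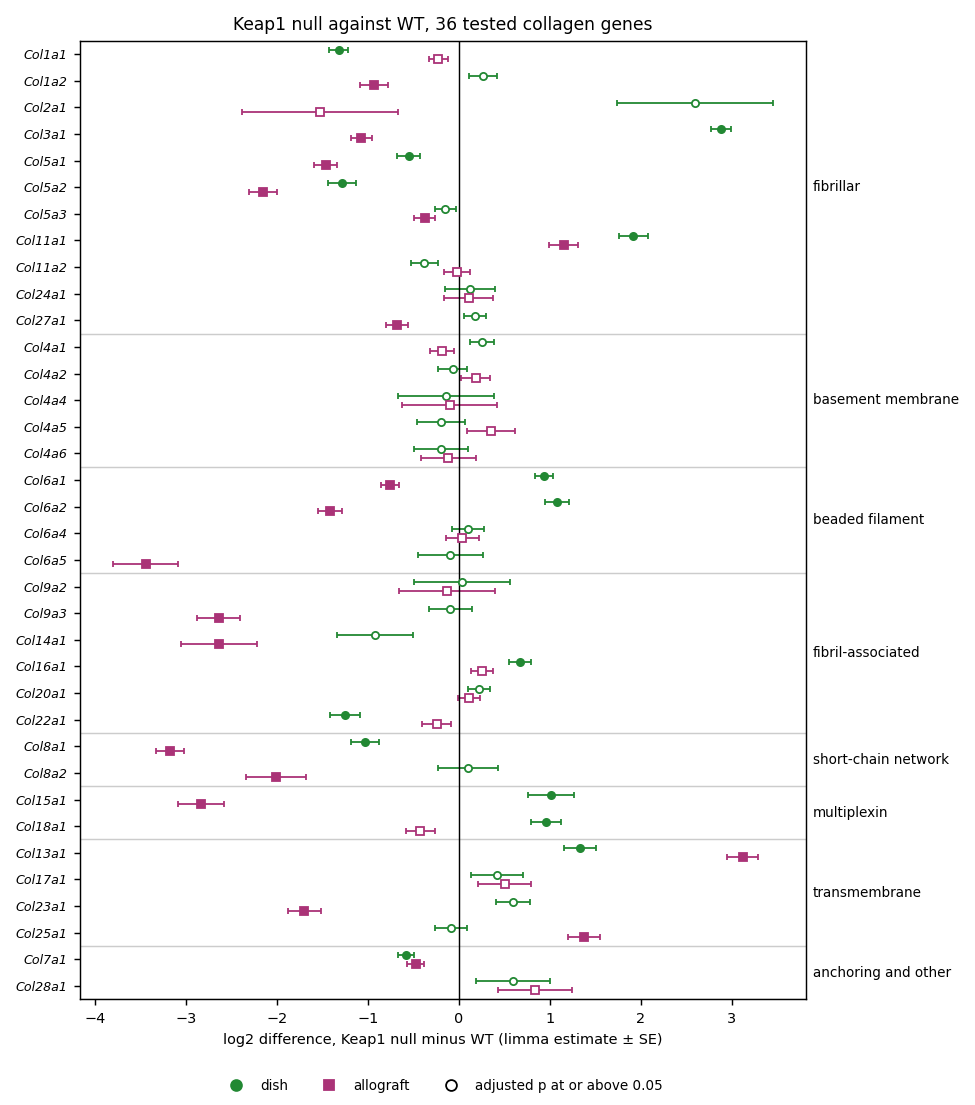
Log2 difference between Keap1 null and WT for each of the 36 tested collagen genes, grouped by class, in dish (green circles) and allograft (purple squares), with the standard error of the limma fit as bars and open symbols where the adjusted p was at or above 0.05. Filled squares lie mostly left of 0, and Col3a1, Col6a1, Col6a2 and Col15a1 have filled circles right of 0 and filled squares left of it.

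The interaction of genotype and growth is the null tumour-minus-dish difference less the WT one, and it tests whether the rise in tumours differed between the lines. It was called for 20 of 36 collagens, 4 positive and 16 negative, where 15.6% and 17.1% of all targets were called in each direction. At least 2-fold, 4 were positive and 12 negative, where 8.56% and 11.9% of all targets were. Col6a5, which entered the test only through WT tumours, is among the negative ones, and its sign lends these counts no support. The collagen median was -0.43 (-0.47 and -0.49 on slides 1 and 2), against 0.037 over all targets. The rise was smaller in Keap1 null by 4.13 ± 1.21 for Col2a1 (adjusted p = 0.0468), a call that ended without any 1 of 6 arrays (0.0606 to 0.129), and by 3.35 ± 0.51 for Col6a5 (0.00466), a fitted value of a gene below background in 3 groups. It was smaller by 3.96 ± 0.16 for Col3a1 (adjusted p = 8.58e-05), 3.84 ± 0.36 for Col15a1 (0.000782), 2.55 ± 0.34 for Col9a3 (0.0028) and 2.50 ± 0.19 for Col6a2 (0.000401). The Col15a1 value is not exact, since only 1 of its 2 WT dish arrays was well above background. Col25a1 (1.47 ± 0.25, 0.00719) rose more in Keap1 null. Col13a1 was called with a fitted value of 1.79 ± 0.25 (0.00343), but its WT dish level was below background, so its WT rise is only a bound and which line rose more is not established. Of the type I chains, Col1a1 was called positive (1.09 ± 0.15, 0.00314) on its brightest probe and Col1a2 negative (-1.20 ± 0.22, 0.00915). No basement membrane chain was called on its brightest probe, where 32.7% of all targets were, and the second Col4a6 probe was called (-1.29, adjusted p = 0.000999). The unscaled intensities gave 1 positive and 17 negative calls.

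Probes of one gene did not always give the same answer. Of 60 tested collagen probes, 47 were called higher and 1 lower in WT tumours, 42 and 3 in Keap1 null tumours, 14 and 9 between the lines in dish, and 8 and 27 in tumours, where 68.2%, 64%, 21.7% and 42.5% of all tested probes were called in either direction. For Col1a1 the other 2 probes put the null line lower by 1.33 and 1.31 in tumours, both called. In dish the second gave -1.33, also called, with an interaction of -0.00065 in place of 1.09, and the third, not well above background in null dishes, was at least 2.11-fold lower there. The second and dimmer Col1a1 probe read -0.22 and -0.40 on the WT dish arrays, -1.56 and -1.72 on the Keap1 null dish arrays, 4.27 and 4.29 in WT tumours, and 2.91 and 2.98 in null tumours. In this probe null tumours were below WT tumours. For Col24a1 the second probe was not well above background in any dish, rose at least 17.8-fold in WT and at least 8.57-fold in Keap1 null tumours, and was called lower in null than WT tumours (-1.10), where the first gave 0.11. For Col3a1 the second probe was not well above background in WT dishes. It was at least 2.52-fold higher in null dish cells and -1.62 in tumours between the lines, the same directions as the first. The array carried 1 tested probe for Col1a2, so no second reading of that chain was made.

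**Figure D4:**
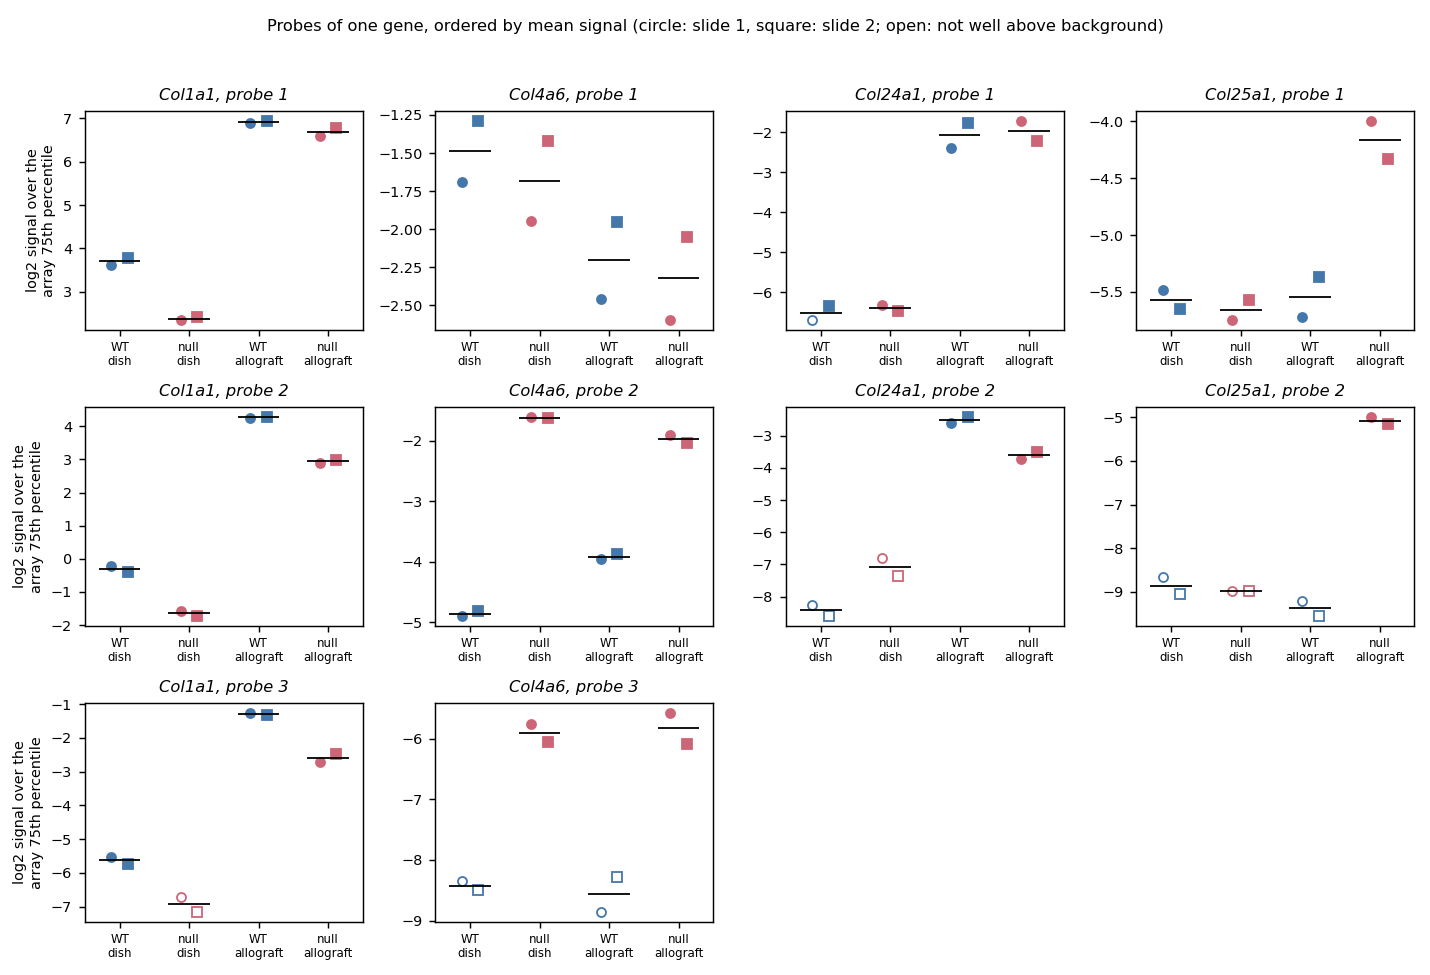
Level of each tested probe of Col1a1, Col4a6, Col24a1 and Col25a1 on the 8 arrays, as log2 processed signal over the array's 75th percentile, with probes ordered by mean signal down each column, circles for slide 1, squares for slide 2, open symbols for spots not well above background and a line at the group mean. Col4a6 probes 2 and 3 lie higher in the null line while probe 1 follows the slide. All Col1a1 probes lie lower in null than WT tumours, by a smaller gap on probe 1, where the difference was not called.

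Collagen genes often lie side by side, and 8 such pairs of neighbours were found in the RefSeq order. Col3a1 and Col5a2 went opposite ways between the lines in dish, at 2.89 and -1.28, and both were lower in null tumours. Col6a2 and Col6a1 had the same sign in all 4 pairwise comparisons. Col4a1 and Col4a2, which share a start region, were 0.26 and -0.066 in dish, not called. In each of the other 5 pairs at least 1 gene was not tested or was not called in any comparison on its brightest probe.

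Genes that make, cut, cross-link and bind collagen were read from 4 lists. Of 20 genes for chain modification, folding and export, 9 were higher and 3 lower in WT tumours than dishes, and 8 and 1 in Keap1 null, which turned to 5 and 14, and 2 and 11, under array-median scaling. Serpinh1, the collagen chaperone HSP47, differed by -0.034 ± 0.11 in WT (adjusted p = 0.809) and rose by 0.47 in Keap1 null (0.0113). Creb3l1, a transcription factor that switches on collagen genes in the secretory pathway, rose by 2.96 and 2.37 and was higher in Keap1 null by 1.33 in dish and 0.74 in tumours, all called. P3h3, a prolyl 3-hydroxylase family member, was lower in null tumours by 1.55 ± 0.12 (0.00024), and P4ha1, a proline 4-hydroxylase subunit, was higher by 0.61 ± 0.18 (0.038). In all, 3 genes of this list were higher and 5 lower in null tumours, and 1 and 3 in null dish cells. The share called in this list was 60% in WT and 45% in Keap1 null tumours against dishes, and 20% in dish and 40% in tumours between the lines. Over all targets it was 68%, 64.8%, 20.8% and 41.7%.
Of 9 tested genes for propeptide removal and cross-linking, 1 was higher and 7 lower in null tumours than in WT tumours. The lysyl oxidase-like enzymes Loxl2, Loxl3 and Loxl4, which cross-link collagen, were lower by 1.96, 2.46 and 1.56. Adamts2, the enzyme that cuts the N-terminal propeptide, was 1.91 ± 0.09 higher in null dish cells (adjusted p = 9.47e-05) and 0.69 ± 0.09 lower in null tumours (0.00165). It rose by 6.91 in WT tumours and 4.32 in Keap1 null. Without either array of a tumour group the 7 lower genes became 4 or 5. In tumours against dishes 6 were higher and 2 lower in WT and 4 and 3 in Keap1 null (3 and 3, and 1 and 5, under array-median scaling), and in null dish cells 2 were higher and 2 lower than in WT. The shares called, in the same order of comparisons, were 88.9%, 77.8%, 44.4% and 88.9%, against the same shares over all targets.
Of 12 genes for breakdown and uptake, 9 were higher and 2 lower in WT tumours and 9 and 3 in Keap1 null tumours, and 7 and 3, and 7 and 4, under array-median scaling. Ctsk, the collagen-cutting cathepsin K, rose by 8.21 ± 0.15 (adjusted p = 9.23e-07) in WT and 6.63 ± 0.15 (2.72e-06) in Keap1 null and was higher in Keap1 null in dish (2.77 ± 0.15) and tumours (1.19 ± 0.15). Mmp13, a collagenase, rose by 6.68 in WT and 3.23 in Keap1 null and was lower in null tumours by 2.58 ± 0.38 (0.00288). Mmp2, gelatinase A, was lower in null dish cells by 1.20 ± 0.10 (0.00065). Between the lines 5 genes of this list were higher and 2 lower in null dish cells, and 2 and 7 in null tumours. The shares called were 91.7%, 100%, 58.3% and 75%, beside 68%, 64.8%, 20.8% and 41.7% of all targets.
Of 9 tested collagen receptors, 5 rose in WT and 7 in Keap1 null tumours with 0 lower, and under array-median scaling 5 were higher and 4 lower in WT and 2 and 2 in Keap1 null. Itga11, the integrin chain that pairs with beta 1 to bind fibrillar collagen, was 1.21 ± 0.24 higher in null dish cells (adjusted p = 0.0189) and 3.81 ± 0.24 lower in null tumours (0.000114). It rose by 6.38 in WT and 1.36 in Keap1 null tumours. Ddr2, a receptor kinase for fibrillar collagen, was higher in null tumours by 0.68 ± 0.08 (0.00131), and Lair1, an inhibitory collagen receptor of leukocytes, was lower by 2.83 ± 0.15 (6.13e-05). Between the lines 3 receptors were higher and 1 lower in null dish cells, and 3 and 3 in null tumours. The shares called were 55.6%, 77.8%, 44.4% and 66.7%, beside the same 68%, 64.8%, 20.8% and 41.7%.

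Markers of the cell types that a fibroblast culture or its tumour could hold were summed as signal over the array's 75th percentile. The 16 fibroblast and pericyte markers, S100a4 and Vim having the highest mean log2 level over all arrays, summed to 376 and 341 on the WT dish arrays, 450 and 442 on the null dish arrays, 422 and 437 in WT tumours and 764 and 787 in null tumours. All 16 were well above background in tumours, and Kcnj8, Abcc9 and Des were not in any dish. S100a4 and Vim were high on all arrays and weigh most in this linear sum. Lum, at -8.15 and -6.93 on the WT dish arrays, was under their dimmest well-above-background signals (-6.42 and -6.90). Of the fibroblast and pericyte markers 8 were higher and 3 lower in null than WT tumours, where 20.5% and 21.2% of all targets were. The 11 macrophage markers summed to 0.601 to 0.866 over the dish arrays, 73.2 and 83.4 in WT tumours and 13.8 and 14.1 in null tumours. Of these macrophage markers 0 were higher and 10 lower in null than WT tumours, beside the same 20.5% and 21.2% of all targets. Mertk and Mrc1, those with the highest mean log2 level over all arrays, were detected in dishes too. Mertk was lower in null tumours than null dishes (-1.71). Adgre1, Itgam, C1qc, Cd163, Ccr2 and Fcgr1 were not well above background in any dish. The 13 endothelial markers, Flt1 and Egfl7 having the highest mean log2 level, summed to 4.34 to 5.84 over the dish arrays, 34.4 and 31.2 in WT tumours and 26.2 and 28.4 in null tumours. In tumours of each line 13 of 13 were higher (11 of 13 in WT under array-median scaling), where 35.9% of all targets were in WT and 35.8% in Keap1 null. Pecam1, Tek, Tie1 and Emcn were not well above background in dishes. The part of fibroblasts, macrophages and endothelial cells in the collagen differences was not tested.
The other lists gave the counts that follow for null against WT tumours, where 20.5% of all targets were called higher and 21.2% lower. Of 6 tested chondrocyte markers (Sox9 and Acan having the highest mean over all arrays, as the names in parentheses do for the other lists) 0 were higher and 4 lower in null than WT tumours, of 6 osteoblast markers (Spp1, Runx2) 2 and 1, of 7 keratinocyte markers (Lor, Krt14) 1 and 1, of 11 muscle markers (Acta1, Mylpf) 2 and 0, of 7 adipocyte markers (Fabp4, Pparg) 1 and 0, and of 6 Schwann cell markers (Pmp22, Mbp) 2 and 3. The keratinocyte and adipocyte values hung on single arrays. The median keratinocyte difference was 0.57 without null allograft array 1 and 2.34 without array 2. For adipocyte markers it was 2.64 without WT allograft array 1 and -1.31 without array 2. In dishes the same lists gave 1 and 2, 0 and 3, 0 and 0, 0 and 0, 0 and 0, and 1 and 1. There 11.4% of all targets were called higher and 9.37% lower.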

How the data were processed

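Total RNA of 8 samples was labelled with 1 colour (Cy3), 500 ng each per the labels' protocols. The deposited intensities are linear processed signals, background-subtracted and not scaled between arrays, made with Agilent Feature Extraction 10.7.3.1 against build mm9, per the file headers. The deposited flags for spots well above background and saturated come from the same files.

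Signals were scaled to each array's 75th percentile and log2 transformed. A probe was tested if well above background on both arrays of a group (30358 of 41174 probes). Symbols came from RefSeq accessions in the GRCm38.p6 table, which named 26690 probes; the files have no gene name column. One limma 3.58.1 fit (R 4.3.3) held the 4 group means over 8 arrays, with 4 residual degrees of freedom, and gave 5 comparisons, each adjusted by Benjamini-Hochberg over 22922 targets. Adjusted p-values are from it unless the sentence names a replicate block, a left-out array, another setting or a second probe (adjusted over all tested probes). An exact permutation test of 2 against 2 arrays cannot go below 0.33. The fit was tested on simulated data.

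Replicate numbers follow the slide, per the file headers, and same-numbered arrays deviated together in all 6 pairs of groups (correlations 0.25 to 0.43), so a fit with this replicate block was an alternative. The others were array-median, quantile, unscaled and normexp values (offset 50, from median spot signals in place of the planned mean signals), other filters on dim probes, the mean over probes, the compared groups alone, and leaving out each array. The members and lists were chosen with earlier results of these data known. Any collagen could be named. Full statistics were kept to the 6 largest called in each direction, the type I, III, V and IV chains in every comparison, and up to 4 called genes of each pathway list.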

Additional observations from a re-analysis of the deposited data

Results flagged for a closer look

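The difference between tumour and dish was not the same in the 2 lines for 20 collagens, by the interaction term of the limma fit. Smaller in Keap1 null were Col2a1 (-4.13), Col3a1 (-3.96), Col15a1 (-3.84), Col6a5 (-3.35), Col9a3 (-2.55), Col6a2 (-2.50), Col23a1 (-2.29), Col8a1 (-2.14) and Col8a2 (-2.11). Lesser values in the same direction were Col6a1 (-1.69), Col18a1 (-1.38), Col1a2 (-1.20), Col5a1 (-0.91), Col5a2 (-0.87), Col27a1 (-0.86) and Col11a1 (-0.76). For Col11a1 the second probe gave a fitted 0.62 (adjusted p = 0.461) and the mean over probes -0.074 (0.881), neither called. Fitted values of genes below background in some dishes are not exact: this holds for Col13a1 and Col8a2 in WT dishes, for the brightest Col23a1 probe in both dishes and for Col6a5 in both dishes and null tumours. Col15a1 was well above background on only 1 of 2 WT dish arrays, so its value is not exact either. Col6a5 entered the test only through WT tumours. Col13a1 had a fitted value of 1.79, and which line rose more is not established for it. Larger in Keap1 null were Col25a1 (1.47), Col1a1 (1.09) and Col22a1 (1.01). On unscaled values none of these genes was called (adjusted p = 0.0547, 0.0971 and 0.135). The Col1a1 value is that of its brightest probe. Its other probes gave -0.00065 and -0.0024, not called, and the mean over probes gave 0.36 (adjusted p = 0.113). Leaving out 1 array ended 7 of the 20 calls. Those of Col11a1 (7 arrays, adjusted p 0.0539 to 0.145), Col2a1 (6 arrays, 0.0606 to 0.129), Col5a2 (5 arrays, 0.069 to 0.0942), Col22a1 (5 arrays, 0.0548 to 0.07) and Col8a2 (4 arrays, 0.0519 to 0.063) ended without any 1 of several arrays, and those of Col5a1 (0.0516) and Col27a1 (0.0542) ended without null dish array 1.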

How the results depend on the processing

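Over all alternatives 7 of 14 collagen calls between the lines in dish, 18 of 19 in tumours, 22 of 29 for WT tumours against dishes, 20 of 28 for Keap1 null and 10 of 20 interactions were kept. Requiring probes well above background on all arrays left 26 genes and 12 calls between the lines in tumours, and 19 for WT tumours. Leaving out 1 array gave 10 to 13 calls in dish, 18 to 20 in tumours, 28 to 30 for WT, 25 to 29 for Keap1 null and 14 to 20 interactions. With the replicate block the counts were 15, 21, 32, 30 and 20, and it changed no call other than those given beside Col2a1, Col4a4, Col4a6, Col18a1 and Col22a1.

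Signs turned as follows for differences called in either setting, and the cause was not tested beyond the shift of all targets given above. For WT tumours against dishes, array-median scaling gave Col11a2 -0.11, Col25a1 -0.997, Col4a2 -0.14, Col4a5 -0.79, Col6a4 -0.87 and Col8a1 -0.20, and quantile normalization gave Col11a2 -0.079, Col25a1 -1.04 and Col6a4 -0.90. For Keap1 null, array-median scaling gave Col22a1 -0.25, Col4a1 -0.19, Col4a5 -0.083, Col5a1 -0.55 and Col6a4 -0.77, and quantile normalization gave Col22a1 -0.30 and Col6a4 -0.79. The mean over probes put Col4a6 at 1.52 in tumours and 1.85 in dish between the lines. Some differences called in neither setting also turned, such as Col8a2 for Keap1 null, as low as -0.44.

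With 2 arrays a group, 1 line a genotype and host RNA in the tumours, array number limits the precision, and dim probes have only bounds.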
